A study of Homo sapiens with 8 samples.

Results

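The comparison described here is that of stiff IPNs with soft IPNs, made between 4 of the 8 RNA-seq libraries of the study, 2 per gel, and read across all genes with enough signal in these 4. An IPN is an interpenetrating network of alginate and reconstituted basement membrane (rBM). Both IPNs held the same rBM and the same alginate, and Ca2+, which crosslinks alginate, was added to the stiff IPNs only, so stiffness and calcium cannot be told apart. The cells were MCF10A, a human mammary epithelial line that arose by spontaneous immortalization and is not malignant. They were between passages 8 and 15 and spent 7 days inside the gels. A single line was used, the gels held no other cell type by design, and replicates 1 and 2 of each gel came from 2 independent trials. The other 4 libraries came from gels made with col-1, soft col:rBM and stiff col, 2 per gel, and serve here for the shared error estimate and for a comparison of differences. Of 25341 genes in the table, the 12977 with a value of at least 10 in at least 2 of the 4 IPN libraries were tested.

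Epithelial cells sense the stiffness of their surroundings through integrins, which link the matrix to actin and myosin, and through calcium channels that open under tension. Mammary epithelium rests on a basement membrane of laminins and collagen IV, to which it binds by hemidesmosomes. Cells of this line carry basal keratins and, like skin keratinocytes, can switch on genes of the cornified envelope, a protein layer beneath the membrane of squamous cells, as well as antimicrobial peptides and chemokines.

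All values are normalized counts, that is, reads on a gene divided by 1 factor per library and rounded. They are given for replicate 1 and then replicate 2 of the soft IPN, followed by replicates 1 and 2 of the stiff IPN. A difference is stiff IPN minus soft IPN on the scale log2(normalized count + 1), which understates the change of low genes, and comes with its standard error (SE). It was fitted with limma over all 8 libraries with 1 mean per gel and the trial as a block. A gene was called, and is said to have risen or fallen, at a Benjamini-Hochberg adjusted p under 0.05 over all 12977 genes. No exact permutation test of 1 gene between groups of 2 can give a two-sided p below 0.333, so the calls rest on variance shared across genes and measure only the spread between these libraries. Because the samples were bulk RNA, fewer cells of a kind and less RNA per cell cannot be told apart.

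Libraries of the series held an estimated 13063229 to 18592366 reads on genes, worked out from steps in the values. At these depths 3 reads, taken as the floor of detection, corresponded to between 2.41 and 3.73 normalized counts. Stiff IPN replicate 2 stood apart. It had the fewest reads of the 8 libraries, its values were further from the soft IPNs than those of stiff IPN replicate 1 in 210 of 228 genes called higher and 275 of 286 called lower, and EEF1A1 took 1.92% of its values against 2.9% in replicate 1 and between 3.55% and 3.77% in the soft IPNs. Among 10 markers of mammary epithelial lines, all were tested, with summed values of 59940 to 110628 in soft and 75695 to 153560 in stiff IPNs. The hormone receptor ESR1 lay between 7 and 11, and PGR and CDKN2A were listed at 0 in all 4 libraries. Of 8 fibroblast markers 2 were tested and 0 called, with COL1A2, LUM and THY1 at 0 and summed values of 998 to 1371 in soft and 1067 to 1101 in stiff IPNs. Of 6 endothelial markers 3 were tested, TIE1 was at 0, and the sum was 254 to 419 in soft and 42 to 115 in stiff IPNs. Of 6 immune markers 2 were tested, PTPRC was at 0, and the sum was 2203 to 4564 in soft and 518 to 1634 in stiff IPNs, most of it the lysosomal protein CD68 (4222 and 2092 against 1220 and 324, difference -2.24, adjusted p = 0.0136). The part of these markers and of stiff IPN replicate 2 in the results below was not tested beyond the values given.

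Between the IPNs, 514 of 12977 genes were called (3.96%), with 228 higher (1.76%) and 286 lower (2.2%) in stiff IPNs. Genes called higher had a median difference of 1.47 and genes called lower one of -0.99, against -0.01 over all genes, whose quartiles were -0.29 and 0.29. The difference exceeded 1 in 182 genes and was under -1 in 141. Libraries of the IPNs did not overlap in 477 of the 514, against 42.2% of all genes tested. All 514 moved the same way in both trials, as did 63.2% of all genes. Both this and the lack of overlap follow largely from the calls, which were made on these same libraries. In 417 of the 514 the difference was larger in trial 2. Across all genes the differences of the trials had an SD of 0.56 in trial 1 and 0.84 in trial 2. A fit without 1 library leaves its gel with a single library, which the mean of that gel fits exactly. The spread between replicates of that gel then no longer enters the error, here and in every such fit below. Counts from these fits are therefore not comparable with the 514, in particular where they are larger. Where 1 direction is named for such a fit, calls in the other may exist. Each library weighed on the number of calls. It was 254 without soft IPN replicate 1, 0 without soft IPN replicate 2 (1189 genes with an unadjusted p under 0.05), and rose to 2657 when stiff IPN replicate 1 and to 1071 when stiff IPN replicate 2 was left out. Leaving out soft col:rBM replicate 1 or 2 gave 326 and 321 calls, and leaving out stiff col replicate 1 or 2 gave 278 and 245. Since no gene passed without soft IPN replicate 2, every group count below was then 0. In each of these 8 fits, all 514 genes kept their direction. This is no independent check, since the fits share most libraries with the fit that chose the genes. Leaving out a collagen library does not change the difference itself. With no block for the trial, limma called 0 genes, and 1234 had an unadjusted p under 0.05.

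**Figure D1:**
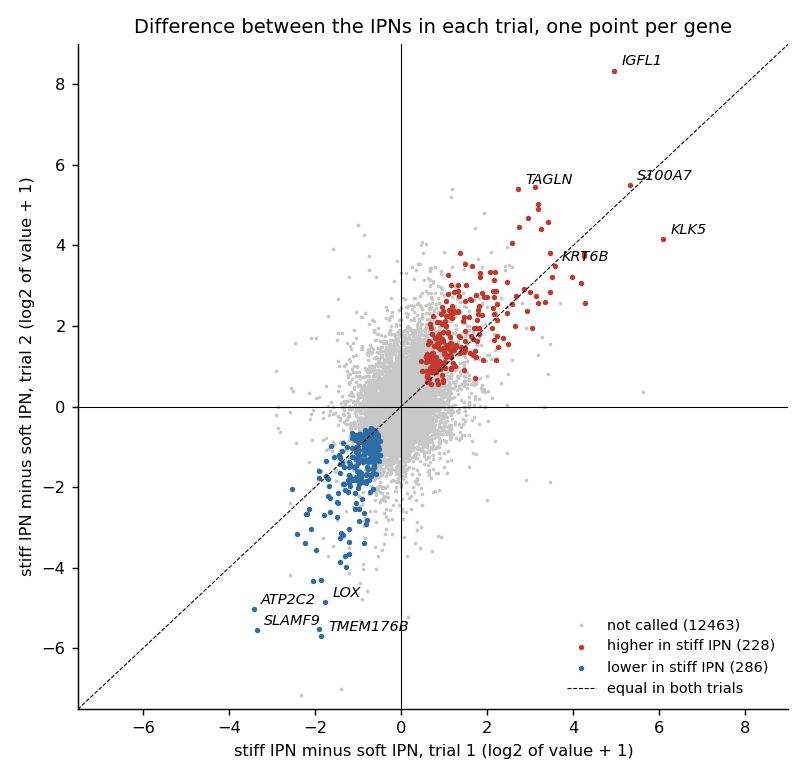
Stiff IPN minus soft IPN difference, log2(normalized count + 1), of each of the 12977 genes in trial 1 (x axis) and trial 2 (y axis), with the 228 genes called higher in red and the 286 called lower in blue. All called genes lie in the upper right or the lower left part, and 417 of the 514 are further from 0 in trial 2.

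Genes of squamous epithelium had some of the largest rises. Of 20 tested genes of the cornified envelope 6 were called higher and 0 lower, 15 lay above 0, and the median difference of the 20 was 1.55 (all genes: -0.01). A gene could pass the filter through the stiff libraries alone. Among the 15 genes at 10 or more in all 4 IPN libraries, 5 were called and the median was 1.33. PI3, which encodes the elastase inhibitor elafin (hg19 chromosome 20, 43803543 to 43805185, plus strand), held 165 and 387 normalized counts in soft and 2616 and 3577 in stiff IPNs. The lowest stiff library was thus far above the highest soft one, a ratio of means of 11.2 (difference 3.59, SE 0.43, adjusted p = 0.014). SPRR2D, a small proline-rich envelope protein (chromosome 1, 153012208 to 153014407, minus strand), held 12 and 24 against 117 and 821 (4.11, SE 0.67, adjusted p = 0.0299). SPRR1A held 23 and 65 against 242 and 397 (2.97, adjusted p = 0.0287), and SPRR2A 7 and 25 against 57 and 196 (2.89, adjusted p = 0.0466). IVL, involucrin, the scaffold of the envelope, held 42 and 126 against 190 and 401 (1.91, SE 0.33, adjusted p = 0.0323). TGM5, a transglutaminase that crosslinks envelope proteins, held 21 and 18 against 96 and 102 (2.29, adjusted p = 0.0323). In all 6 the libraries did not overlap, as in 477 of the 514 called genes. The SPRR2 genes are near-identical copies, between which discarding of multimapped reads could shift counts. The group had 0 calls without soft IPN replicate 1 and 0 without soft IPN replicate 2, while 8 were called higher and 3 lower without stiff IPN replicate 1.

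Promoters of 12 of these 20 genes were found among the RefSeq promoters (GRCh38.p14). The motif TGANTCA, the form read by AP-1 factors (searched on both strands, which are the same sequence), was in the 250 bases before the start in 9 of the 12 (75%), against 8.06% of all 27305 promoters. The genes of this and the later promoter comparisons were listed from what is known of their regulation, so such shares partly reflect how the lists were made, and a match is not a shown binding site. Stretches of 30 bases around the motif are shown for the called envelope genes that held it, read on the gene's strand, with the motif in capitals and positions found on hg19 by exact match. They lie at chr1:152880887-152880916 (plus strand), chr1:152956437-152956466 (plus strand) and chr1:153030168-153030197 (minus strand).
IVL: agatgcctgtggTGAGTCAggaaggggtta
SPRR1A: aggatggtagtgTGAGTCAtgtgtgacagg
SPRR2A: gcatggcttctgTGAGTCAggagagcttaa
SPRR1A and SPRR2A rose more than IVL did.

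Calcium-binding S100 proteins, many of which lie with the envelope genes in the epidermal cluster of chromosome 1, divided into members that rose and members near 0. Of 13 tested, 5 were called higher and 0 lower, while the median was only 0.06. S100A7, psoriasin, an antimicrobial protein of skin, had the largest rise (9 and 12 against 395 and 586, difference 5.4, SE 0.92, adjusted p = 0.0323). S100A8 and S100A9 form calprotectin. S100A8 held 623 and 877 against 2109 and 3930 (1.96, SE 0.16, adjusted p = 0.00649), and S100A9 held 1673 and 1720 against 4303 and 5671 (1.54, SE 0.16, adjusted p = 0.00853). S100P held 237 and 297 against 796 and 1156 (1.85, adjusted p = 0.00853) and S100A3 113 and 255 against 397 and 891 (1.8, adjusted p = 0.027). None of the 5 overlapped between the gels, which held for 477 of the 514 called genes. The count of 5 was 3 without soft IPN replicate 1 and 0 without soft IPN replicate 2.

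Kallikreins are secreted serine proteases of the skin surface that are held in check by SPINK and SERPINB inhibitors. Of 19 tested kallikreins and inhibitors 8 were called higher and 0 lower, 17 lay above 0, and the median was 1.99, with 1.83 in trial 1 and 2 in trial 2. The protease KLK5 was listed at 0 and 10 in soft and 67 and 196 in stiff IPNs (5.13, SE 1.03, adjusted p = 0.0411). Its inhibitor SPINK6 (chromosome 5, 147582357 to 147594700, plus strand) held 14 and 24 against 158 and 597 (3.99, SE 0.54, adjusted p = 0.0205). The protease inhibitor A2ML1 held 9 and 16 against 112 and 157 (3.36, adjusted p = 0.0169). Inhibitors thus rose beside the protease. SERPINB2, an inhibitor of plasminogen activators, held 78 and 98 against 354 and 995 (2.75, SE 0.35, adjusted p = 0.0179). The squamous cell antigens SERPINB3 (65 and 64 against 339 and 210) and SERPINB4 (8 and 5 against 31 and 59) rose by 2.03 and 2.58, and are near-identical copies. SERPINB13 held 103 and 217 against 646 and 874 (2.32). SLPI, at 4538 and 7219 against 8072 and 11493, had the smallest called rise of the group, 0.75 (adjusted p = 0.038). The group's 8 calls were 0 without soft IPN replicate 1 and 0 without soft IPN replicate 2. When only the 12 genes at 10 or more in all 4 libraries were kept, 5 were called and the median was 1.69.

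Keratins showed large levels and few calls. KRT6B, a keratin of wounded and fast-growing epithelium (chromosome 12, 52840435 to 52845930, minus strand), had the smallest adjusted p of all genes. Soft IPNs held 51 and 307 and stiff IPNs 616 and 3456, a difference of 3.53 (SE 0.19, adjusted p = 0.00103) that was 3.47 to 3.59 without any single IPN or collagen library. Each stiff library lay far above the soft library of its own trial, and trial 2 was higher in both gels. KRT6A, its close copy, held 21219 and 36231 against 19961 and 45308, which overlap, with a difference of 0.12 (SE 0.16, adjusted p = 0.692) and of -0.09 in trial 1. KRT6C held 59 and 94 against 47 and 92. Reads shared by these copies could move between them, and how the counting treated each was not tested. KRT17, a basal and wound keratin (chromosome 17, 39775694 to 39781094, minus strand), held 5552 and 18767 against 19555 and 71907 (1.88, SE 0.18, adjusted p = 0.00709). The highest soft library was below the lowest stiff one by a narrow margin. Of 9 tested wound and suprabasal keratins, KRT6B alone was called, and 5 were called without stiff IPN replicate 1, 2 without stiff IPN replicate 2 and 0 without soft IPN replicate 2. Their summed share of all values was 0.406% and 0.373% in soft against 0.62% and 0.912% in stiff IPNs.

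**Figure D2:**
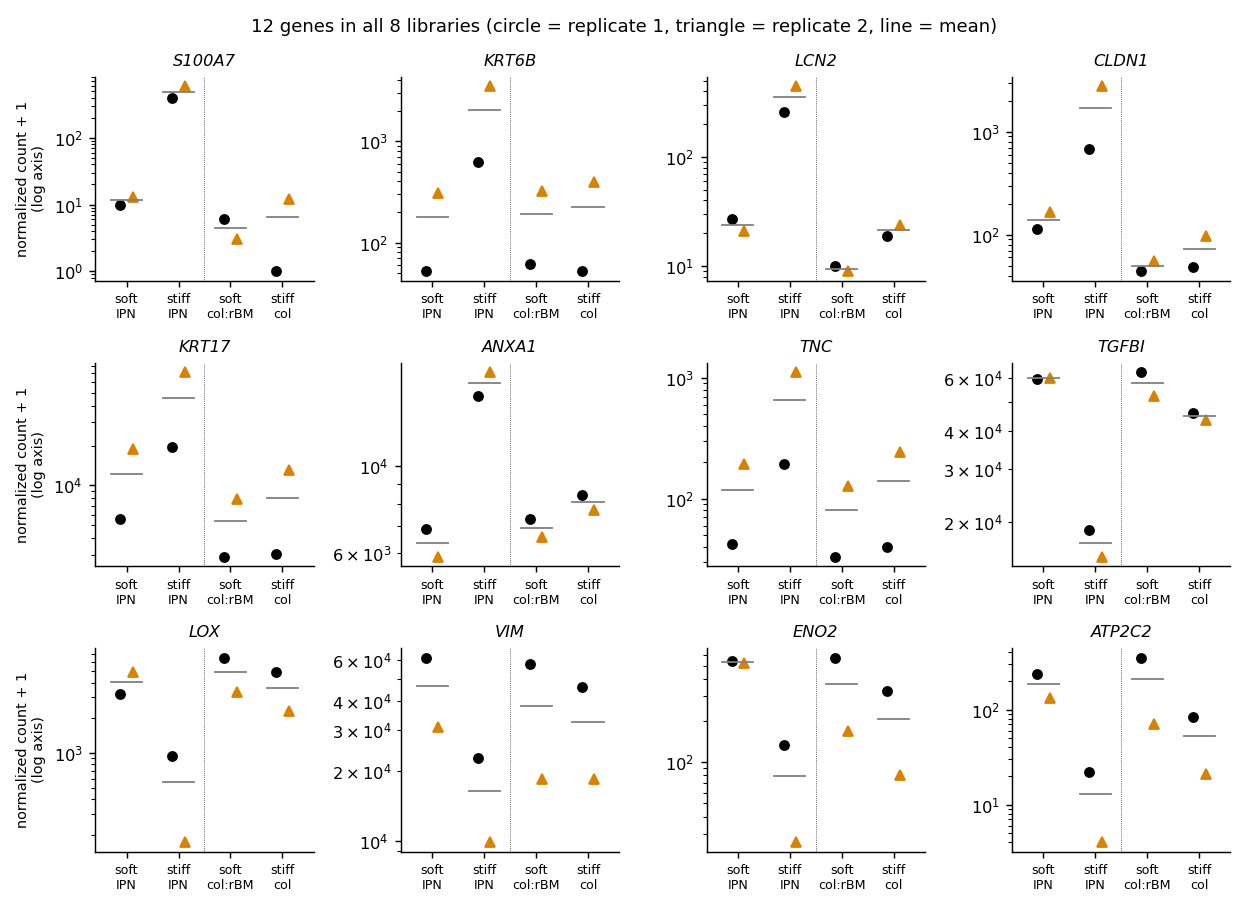
Normalized count + 1 (log axis) of 12 genes in all 8 libraries, by gel, with a circle for replicate 1, a triangle for replicate 2 and a line at the mean of each gel. KRT6B rose from 51 and 307 in soft IPNs to 616 and 3456 in stiff IPNs and held 60 and 318 in soft col:rBM and 52 and 391 in stiff col gels.

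Antimicrobial proteins, chemokines and their inducers are the first response of an epithelium to microbes. Of 28 tested, 11 were called higher and 0 lower, 23 lay above 0, and the median was 0.86, with 0.83 in trial 1 and 1.03 in trial 2. LCN2, lipocalin 2, which binds bacterial iron carriers (chromosome 9, 130911350 to 130915732, plus strand), held 26 and 20 against 258 and 441 (3.83, SE 0.37, adjusted p = 0.00709). Chemokines that attract neutrophils rose together. CXCL1 held 386 and 508 against 1188 and 3191 (2.13, SE 0.28, adjusted p = 0.018), CXCL2 118 and 59 against 252 and 418 (1.95), and CXCL8 848 and 418 against 1973 and 3004 (2.03, adjusted p = 0.0396). Acute phase proteins SAA1 (2126 and 2361 against 4218 and 6114) and SAA2 (151 and 72 against 341 and 586) rose by 1.18 and 2.09 and are near-identical copies. The complement factor CFB rose by 1.21 (485 and 415 against 952 and 1141). NFKBIZ, which steers NF-kB to secondary targets, held 314 and 240 against 625 and 598 (1.15, adjusted p = 0.0247), and BIRC3, an inhibitor of apoptosis, held 1836 and 1387 against 3446 and 3769 (1.17, adjusted p = 0.0355). PI3 and SLPI, described above, also belong to this list. In none of the 11 did the libraries overlap, nor did they in 477 of the 514 called genes. The calls were 4 higher and 1 lower without soft IPN replicate 1, 15 higher and 3 lower without stiff IPN replicate 1, and 0 without soft IPN replicate 2.

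The motif GGGA, 1 base of any kind and TTTCC, a form of the NF-kB site (both strands), was in the 250 bases before the start of 9 of 20 genes of this list with a promoter in the table (45%), against 0.645% of all promoters, and in 3 of the 7 called ones. Those 3 stretches, with the motif in capitals, lie at chr4:74735021-74735050 (plus strand), chr4:74964971-74965000 (minus strand) and chr3:101546601-101546630 (plus strand) of hg19.
CXCL1: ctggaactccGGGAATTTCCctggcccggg
CXCL2: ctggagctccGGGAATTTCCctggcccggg
NFKBIZ: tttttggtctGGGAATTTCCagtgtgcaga
CXCL1 and CXCL2 are related chemokines of the same gene cluster.

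Interferon-stimulated genes encode sensors and effectors against viruses. Of 40 tested, 10 were called higher and 0 lower, 38 lay above 0 (49.4% of all genes did), and the median was 0.78. Trial 1 alone gave a median of 0.48, trial 2 one of 1.22. IFI27 (chromosome 14, 94571182 to 94583032, plus strand) held 15 and 25 against 123 and 671 (3.82, SE 0.66, adjusted p = 0.0323). ISG15, a ubiquitin-like modifier, held 34 and 45 against 108 and 511 (2.56, SE 0.49, adjusted p = 0.0379). DDX58, which encodes the RNA sensor RIG-I, held 90 and 113 against 245 and 497 (1.78, SE 0.24, adjusted p = 0.019). Stiff IPN replicate 2 was the highest library in each of these. In SAMD9, by contrast, the stiff libraries were alike (465 and 413 against 1212 and 1145, difference 1.42, adjusted p = 0.0287). IFIT2 (1.8), IFIT3 (1.58), SAMD9L (1.55), HERC6 (1.19), OAS1 (1.18) and PARP9 (1.02) were also called. MX1 held 14 and 10 against 24 and 92 (1.91, adjusted p = 0.145). The 10 calls were 25 without stiff IPN replicate 1, 1 without soft IPN replicate 1, 0 without soft IPN replicate 2, 6 without soft col:rBM replicate 2 and 5 without stiff col replicate 2. Of 15 tested genes of MHC class I and its peptide loading 0 were called (3 higher without stiff IPN replicate 1 and 1 lower without stiff IPN replicate 2), and 12 lay above 0 with a median of 0.12.

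GAAA, 2 bases of any kind and GAAA again, a form of the interferon-stimulated response element (both strands), was present before the start of 22 of 32 interferon-stimulated genes with a promoter (68.8%), against 3.71% of all promoters. It was present in 5 of the 9 called ones with a promoter, of which 3 are shown, at chr14:94576977-94577006 (plus strand), chr1:948760-948789 (plus strand) and chr7:92747409-92747438 (minus strand). Capitals mark the motif.
IFI27: cggtttcctgGAAAATGAAAcctatctcat
ISG15: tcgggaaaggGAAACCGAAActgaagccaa
SAMD9: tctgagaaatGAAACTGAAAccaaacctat
IFI27 and ISG15 were highest in stiff IPN replicate 2, and SAMD9 was not.

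Cell junction genes changed in a few members. Of 15 tested epithelial adhesion genes and their regulators 3 were called higher and 0 lower, 13 lay above 0, and the median was 0.82. CDH1, E-cadherin, held 2312 and 2724 against 3972 and 5620 (0.91, SE 0.18, adjusted p = 0.038). MAL2, of apical transport, held 1203 and 1193 against 3376 and 4404 (1.69, SE 0.26, adjusted p = 0.0281). The epithelial regulator GRHL1 held 33 and 53 against 108 and 129 (1.47, adjusted p = 0.0448). EPCAM held 314 and 181 against 408 and 434 without passing (0.82, adjusted p = 0.138). Of 16 tested genes of tight junctions 2 were called higher, and the group's median was 0.49. CLDN1, claudin 1 (chromosome 3, 190023496 to 190040235, minus strand), held 112 and 166 against 672 and 2761 (3.31, SE 0.38, adjusted p = 0.0137), and OCLN, occludin, held 106 and 37 against 273 and 529 (2.58, adjusted p = 0.0483). CLDN4 held 122 and 29 against 464 and 837 and did not pass (3.36, SE 0.93, adjusted p = 0.0804). Of 10 desmosome genes 0 were called, with a median of 0.1, and 1 was higher and 3 lower without stiff IPN replicate 1. The adhesion count of 3 was 9 without stiff IPN replicate 1, 1 without soft IPN replicate 1 or stiff col replicate 2, and 0 without soft IPN replicate 2. The tight junction count of 2 was 6 without stiff IPN replicate 1, 0 without soft IPN replicate 2, and 1 without soft IPN replicate 1, soft col:rBM replicate 2 or either stiff col replicate.

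Mesenchymal genes were mostly on the lower side. Of 14 tested, 1 was called lower and 1 higher, 12 lay below 0, and the median was -0.59. VIM, vimentin (chromosome 10, 17270240 to 17279592, plus strand), held 61638 and 30868 against 22798 and 9804, so that its highest stiff library was below its lowest soft one (-1.54, SE 0.18, adjusted p = 0.0139). FAP, a cell surface protease better known from activated fibroblasts, rose (287 and 177 against 712 and 914, difference 1.83, adjusted p = 0.0263), while the fibroblast markers given above did not. FN1 held 11610 and 9691 against 7577 and 3936 (-0.96, adjusted p = 0.0717). The number lower was 6 without stiff IPN replicate 1, 3 without soft IPN replicate 1, 2 without stiff IPN replicate 2 and 0 without soft IPN replicate 2, and the number higher was 2 without stiff IPN replicate 1 and 0 without soft IPN replicate 1 or 2.

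Matrix genes fell more often than they rose. Of 31 tested genes of interstitial matrix and its crosslinking, 10 were called lower and 3 higher, 23 lay below 0 (50.6% of all genes did), and the median was -0.64. TGFBI, a secreted matrix protein that binds integrins (chromosome 5, 135364677 to 135399507, plus strand), was among the most abundant of these. It held 59566 and 59917 against 18760 and 15302, a ratio of means of 3.51 (-1.82, SE 0.15, adjusted p = 0.00709), with a close match within each gel. LOX, the enzyme that crosslinks collagen and elastin (chromosome 5, 121398890 to 121414108, minus strand), held 3207 and 4950 against 946 and 170 (-3.31, SE 0.56, adjusted p = 0.0323). Its relative LOXL2 held 10080 and 9356 against 5517 and 891 (-2.13, adjusted p = 0.0494), and both were lowest in stiff IPN replicate 2. Collagen-modifying hydroxylases fell too, among them P4HA1 (6447 and 2540 against 2404 and 944, difference -1.42, SE 0.13, adjusted p = 0.00709), LEPREL1 (-1.41) and PLOD1 (-1.38). The microfibril and collagen VI genes FBN1 (-1.57), COL6A1 (-1.46) and COL6A2 (50 and 32 against 11 and 3, difference -2.57) fell, as did SRPX (-1.31). In the opposite direction, TNC, tenascin C, a matrix protein of wounds and tumours, held 41 and 191 against 194 and 1118 (2.38, SE 0.24, adjusted p = 0.00853). POSTN, periostin, held 12 and 5 against 47 and 28 (2.08, adjusted p = 0.0311), and THBS1 rose by 0.92. The group took 0.674% and 0.647% of all values in soft and 0.372% and 0.264% in stiff IPNs. The 10 lower calls were 0 without soft IPN replicate 2, and the 3 higher calls were 1 without soft IPN replicate 1 and 0 without soft IPN replicate 2.

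Of 22 tested genes of laminins, hemidesmosomes and basement membrane, 3 were called lower and 0 higher, 20 lay below 0, and the median was -0.48. ITGB4, the integrin of hemidesmosomes (chromosome 17, 73717408 to 73753899, plus strand), held 43446 and 36407 against 21849 and 9669 (-1.45, SE 0.24, adjusted p = 0.0299). COL17A1, its transmembrane collagen partner, held 28378 and 28190 against 16935 and 14108 (-0.87, adjusted p = 0.0379). LAMB1 held 20703 and 6982 against 9483 and 4414 (-0.89, adjusted p = 0.0391), where stiff IPN replicate 1 lay above soft IPN replicate 2 and the fall was within each trial. The laminin chains LAMA3 (-0.67) and LAMB3 (-0.47) did not pass. Of 14 tested integrins, ITGA5 (41410 and 22332 against 21889 and 4560, -1.61), ITGA10 (-1.3) and ITGB4 fell and ITGB6 rose (860 and 1258 against 1918 and 2442, 1.06, adjusted p = 0.0448). ITGB1 held 33583 and 29816 against 33065 and 21026 (-0.26, adjusted p = 0.375). The 3 lower calls of the basement membrane list were 9 without stiff IPN replicate 1, 0 without soft IPN replicate 2 and 1 without any single collagen library. Those of the integrins were 5 without stiff IPN replicate 1 and 0 without soft IPN replicate 2, and the higher call was 4 without stiff IPN replicate 2 and 0 without either soft IPN replicate. Of 17 proteases of the matrix and their inhibitors, PLAU rose (1662 and 2092 against 3348 and 4474, 1.05, adjusted p = 0.0191), and MMP1 (76 and 86 against 28 and 5, -2.63) and MMP11 (105 and 64 against 44 and 14, -1.68) fell. There the 2 lower calls were 4 without stiff IPN replicate 1, 1 without soft IPN replicate 1, stiff IPN replicate 2 or stiff col replicate 1, and 0 without soft IPN replicate 2 or stiff col replicate 2, and the higher call was 3 without stiff IPN replicate 1 and 0 without either soft IPN replicate.

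The ligands INHBA, TGFB1 and BMP2 of the TGF-beta family fell. Of 29 tested genes of TGF-beta and BMP signalling 5 were called lower and 0 higher, while the median was only -0.07, and 0.20 when libraries were scaled to equal sums. INHBA, the activin A subunit, held 1143 and 420 against 407 and 80 (-1.93, SE 0.24, adjusted p = 0.0167). TGFB1 held 3406 and 1772 against 1457 and 632 (-1.36, SE 0.18, adjusted p = 0.018), and LTBP4, which binds latent TGF-beta, held 1587 and 1191 against 716 and 502 (-1.2, adjusted p = 0.0139). BMP2 fell by 0.78 with overlapping libraries. TGFBI, described above, is named for its response to TGF-beta. The count of 5 was 8 without stiff IPN replicate 1 and 0 without soft IPN replicate 2, and 3 genes were called higher without stiff IPN replicate 1.

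**Figure D3:**
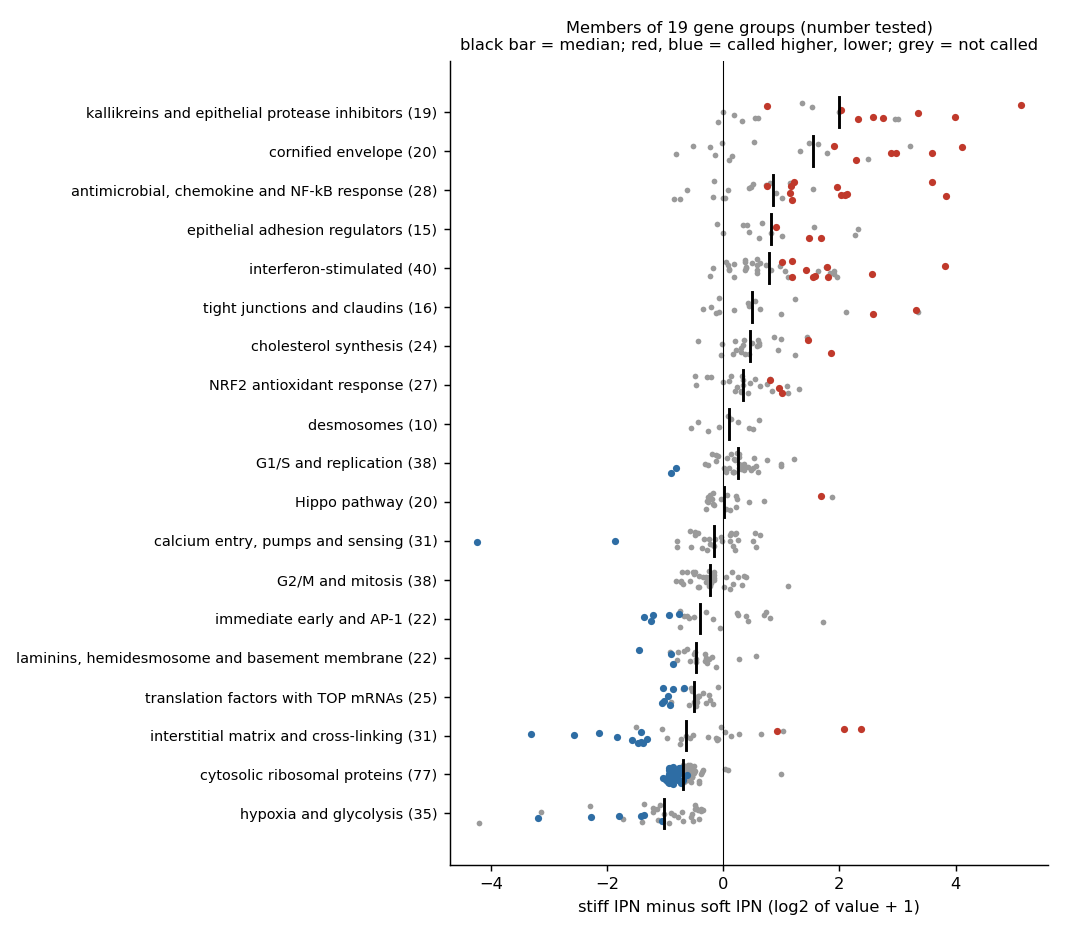
Stiff IPN minus soft IPN difference, log2(normalized count + 1), of every tested member of 19 gene groups, with a black bar at the median, red for members called higher, blue for called lower and grey for not called. The squamous groups lie to the right with medians of 1.55 and 1.99 (1.33 and 1.69 over members at 10 or more in all 4 IPN libraries). The ribosomal proteins (-0.69) and the hypoxia and glycolysis genes (-1.02) lie to the left.

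Ribosomal protein genes had the most calls of the 45 gene groups listed. Of 77 tested cytosolic ribosomal protein genes 33 were called lower (42.9%, against 2.2% of all genes) and 0 higher, 74 lay below 0, and the median was -0.69, with -0.66 in trial 1 and -0.72 in trial 2. The libraries of the IPNs did not overlap in 75 of the 77 (97.4%, against 42.2% of all genes tested). RPS2 held 83944 and 78585 against 46179 and 34237 (-1.03, SE 0.17, adjusted p = 0.0308), the largest called fall of the group. RPLP0, of the ribosomal stalk (chromosome 12, 120634502 to 120639038, minus strand), held 99782 and 88074 against 58834 and 40945 (-0.93, SE 0.17, adjusted p = 0.0347). RPL3 held 97717 and 104300 against 65818 and 47431 (-0.85, adjusted p = 0.0465). The called falls ran from -1.03 to -0.62 with adjusted p values from 0.0308 to 0.0491, all near the threshold. RPL36A, RPL17 and RPS10, the 3 that lay above 0, named after their values were seen, had low values, and each has a read-through symbol in the table that is listed at 0. Ribosomal protein genes have many processed pseudogenes, so that loss of multimapped reads can lower their counts in all libraries. Together they took 16.4% and 14.8% of all values in soft and 12% and 10.4% in stiff IPNs, against 14.7% and 12.4% in soft col:rBM and 15% and 12.2% in stiff col gels.

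Translation factors were listed whose mRNAs, like those of ribosomal proteins, start with a 5' terminal oligopyrimidine (TOP) tract. Of 25 tested, 7 were called lower, all 25 lay below 0, and the median was -0.51. EEF2, elongation factor 2 (chromosome 19, 3976054 to 3985461, minus strand), held 99927 and 96868 against 61803 and 38196 (-1.02, SE 0.19, adjusted p = 0.0355). GNB2L1, which encodes the ribosomal scaffold RACK1, held 84642 and 85677 against 50287 and 34472 (-1.03, SE 0.18, adjusted p = 0.0323). EEF1G (-1.06), EIF4B (-0.95), GLTSCR2 (-0.91), PABPC1 (-0.86) and EIF3F (-0.68) also fell, and in each the stiff libraries lay below the soft ones. EEF1A1, the most abundant gene of the table, just missed (adjusted p = 0.0559). Of 75 tested nuclear genes of the respiratory chain, 1 was called (1.33%, against 3.96% of all genes). This was ATP5G2, which was lower (-0.86), and the median of the 75 genes was -0.03. The respiratory chain genes took far less of the values, 1.05% and 1.04% in soft IPNs, against 16.4% and 14.8% for the ribosomal protein genes. Leaving out stiff IPN replicate 1 gave 5 higher and 2 lower calls there, and ATP5G2 was not called without either soft IPN or any single collagen library.

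Both groups depended on how values were treated. Under quantile normalization, which gives every library the same distribution, 0 of the 77 ribosomal genes were called and their median was -0.17, and 1 of the 25 factors was called with a median of -0.23. Scaled to equal sums the ribosomal median was -0.42, and after correction for gene length and GC content 62 ribosomal genes and 12 factors were called. A fit of the 4 IPN libraries alone with the block called 1 and 2. Without soft IPN replicate 2 both counts were 0, and the ribosomal count was 5 without soft col:rBM replicate 1, soft col:rBM replicate 2 or stiff col replicate 1, and 3 without stiff col replicate 2. The count of factors was 12 without stiff IPN replicate 1, 4 without stiff col replicate 1 and 3 without stiff col replicate 2. Over all genes the difference between the IPNs went with GC content. In the 3172 genes with the least GC (29.2% to 41.5%) the median difference was 0.16, with 78 called higher and 15 lower, and in the 3164 genes with the most (55.9% to 76%) it was -0.15, with 36 higher and 114 lower. The part of GC content in the calls was not tested beyond that correction.

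A TOP tract was taken as a C at the annotated start followed by 4 pyrimidines. It was found at the start of 46 of 62 ribosomal protein genes with a RefSeq promoter (74.2%) and of 16 of 17 factors (94.1%), against 5.14% of all 27305. Called genes showed it in 19 of 25 and 5 of 6 cases. For 4 of the called genes 20 bases are shown, 10 before and 10 from the start onwards, with the tract in capitals from the annotated start. They lie at chr12:120638905-120638924, chr9:130213676-130213695, chr19:3985452-3985471 and chr5:180670897-180670916, all on the minus strand of hg19.
RPLP0: ggcgcgaggcCCTTCTCTCg
RPL12: cgatttccggCCTCTCggct
EEF2: cgtcagcgttCTCTTCCgcc
GNB2L1: gcttttctctCTCTCTTTCa
RPL12 held 76670 and 63178 in soft and 42543 and 30428 in stiff IPNs (-0.95, adjusted p = 0.0323).

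**Figure D4:**
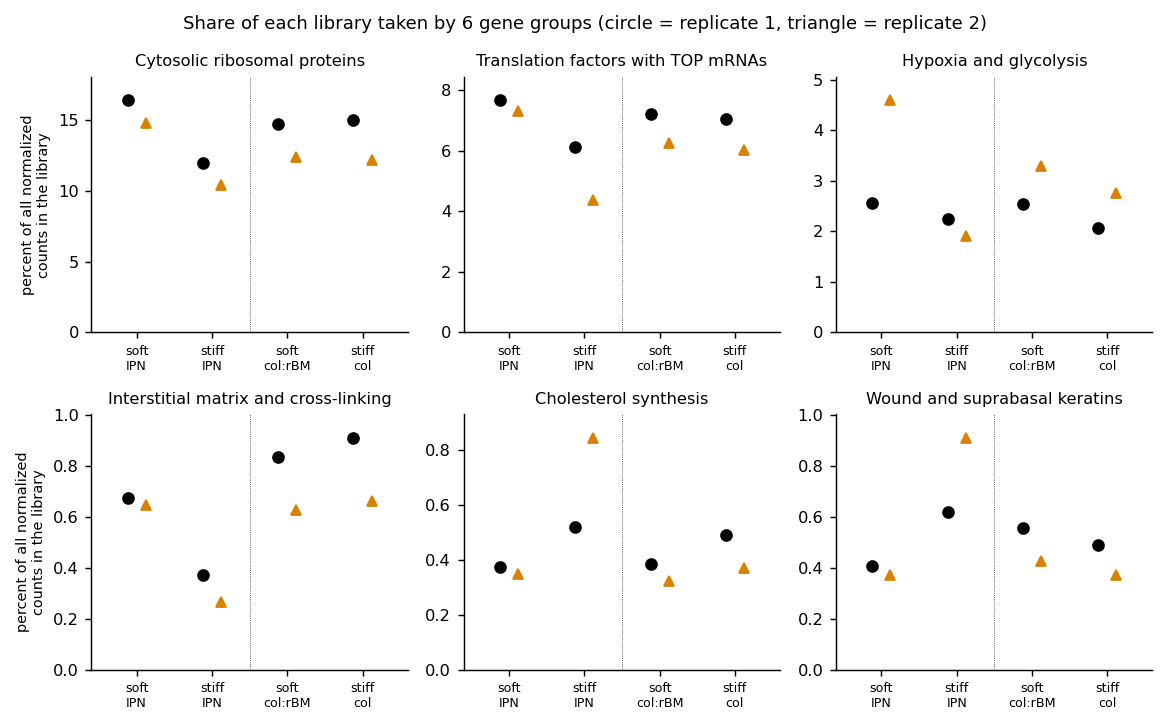
Share of all normalized counts (percent, axes from 0) taken by 6 gene groups in each of the 8 libraries, by gel, with a circle for replicate 1 and a triangle for replicate 2. Ribosomal proteins took 16.4% and 14.8% in soft and 12% and 10.4% in stiff IPNs, and the shares in both collagen gels lay between 12.2% and 15%.

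Genes of the hypoxia response and glycolysis, which cells with little oxygen raise through HIF factors, all lay below 0. Of 35 tested, 6 were called lower and 0 higher, and the median was -1.02, with -0.38 in trial 1 and -1.64 in trial 2. GAPDH, a glycolytic enzyme often used as a reference gene (chromosome 12, 6643678 to 6647540, plus strand), held 182477 and 278772 against 104054 and 74553, the largest fall of all genes in normalized counts among the called (-1.36, SE 0.25, adjusted p = 0.0362). ENO2, an enolase, held 545 and 520 against 132 and 25 (-3.18, SE 0.48, adjusted p = 0.0263). ADM, adrenomedullin, held 604 and 2630 against 262 and 257 (-2.28, SE 0.4, adjusted p = 0.0335). The aldolases ALDOC (1609 and 1654 against 928 and 235, -1.8) and ALDOA (42630 and 49328 against 25265 and 19506, -1.05) fell, as did P4HA1, described with the matrix genes. CA9, carbonic anhydrase 9, a close marker of HIF activity, held 2431 and 4770 against 918 and 36. Its difference of -4.21 was larger than that of any called member, but its SE was 1.28 and it did not pass (adjusted p = 0.121). NDRG1 held 27790 and 84148 against 18632 and 5153 (-2.3, adjusted p = 0.0915), again lowest in stiff IPN replicate 2 and highest in soft IPN replicate 2. The 6 calls were 34 without stiff IPN replicate 1, 11 without soft IPN replicate 1, 0 without soft IPN replicate 2 and 3 without either stiff col replicate. The group's share of all values was 2.55% and 4.59% in soft and 2.24% and 1.9% in stiff IPNs.

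ACGTG, the core of the element that HIF factors bind (both strands), stood within 250 bases before the start in 18 of 31 of these genes (58.1%), against 21.7% of all promoters, and in 5 of the 6 called. In ALDOA and GAPDH it was part of CACGTG, which other factors also read. The other 3 are shown, at chr12:7023613-7023642 (plus strand), chr10:74856694-74856723 (minus strand) and chr17:26903925-26903954 (minus strand), with the core in capitals, reading CACGT where it lay on the opposite strand.
ENO2: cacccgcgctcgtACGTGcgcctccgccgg
P4HA1: gtgtgatcgagctCACGTagcgagggctgc
ALDOC: cccccggaggagtCACGTagctctgcgaca
All 3 were lower in both stiff libraries than in both soft ones.

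Cholesterol synthesis had 2 called genes of 24, both higher, with 21 above 0 and a median of 0.46. HMGCS1, which makes HMG-CoA (chromosome 5, 43287572 to 43313614, minus strand), held 1657 and 1762 against 4171 and 9096 (1.85, SE 0.32, adjusted p = 0.0323). FDPS, farnesyl diphosphate synthase, held 6711 and 7389 against 14303 and 26286 (1.46, SE 0.3, adjusted p = 0.0426). In both the stiff libraries lay above the soft ones. The trials differed, with medians of 0.16 and 0.82, and the count of 2 was 17 without stiff IPN replicate 1 and 0 without either soft IPN replicate. The antioxidant genes driven by NRF2 had 3 called of 27, all higher, with 22 above 0 and a median of 0.34. NQO1, a quinone reductase, held 3291 and 3662 against 5726 and 7963 (0.96, SE 0.15, adjusted p = 0.0267), and GCLM (1.01) and TXNRD1 (0.8) also rose. That count was 11 without stiff IPN replicate 1, 1 without soft IPN replicate 1 or either stiff col replicate, and 0 without soft IPN replicate 2. Fatty acid synthesis had 2 called of 18, ELOVL6 (0.6) and FADS3 (1.32), and of 19 heat shock chaperones HSPH1 rose (0.92) and DNAJB5 fell (-1.2). The fatty acid count of 2 was 6 without stiff IPN replicate 1, 1 without any single collagen library and 0 without either soft IPN replicate, and the higher chaperone count was 8 and 4 without stiff IPN replicate 1 or 2.

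As calcium was added to stiff IPNs only, genes of calcium entry, pumps and sensing were listed. Of 31 tested, 2 were called lower and 0 higher (6.45%, against 3.96% of all genes). The median was -0.15 (0.12 with libraries scaled to equal sums). ATP2C2, a calcium pump of the secretory pathway that is typical of mammary cells (chromosome 16, 84402133 to 84497793, plus strand), held 236 and 130 against 21 and 3. This is a ratio of means of 15.2 (-4.23, SE 0.41, adjusted p = 0.00709), with both stiff libraries far below the soft ones. ITPR1, a calcium release channel, held 608 and 706 against 346 and 93 (-1.86, adjusted p = 0.0468). PIEZO1, a stretch-gated channel, held 2353 and 3444 against 2157 and 2683 (-0.24, adjusted p = 0.291), and the sensor STIM1 held 851 and 766 against 635 and 694 (-0.28). More genes of this list were called lower without stiff IPN replicate 1, and some were called in each direction without stiff IPN replicate 2. Fewer were called when any single collagen library was left out, and none without soft IPN replicate 2.

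Among 33 tested genes of actin, myosin and their partners 1 rose and 1 fell (6.06%, against 3.96% of all genes), and the median was 0.08. TAGLN, transgelin, held 16 and 64 against 111 and 2728 (4.06, SE 0.73, adjusted p = 0.0349), most of it from stiff IPN replicate 2, and the difference was 2.49 without that library. ACTA2, smooth muscle actin, held 788 and 510 against 377 and 152 (-1.4, SE 0.19, adjusted p = 0.0213), so these markers of contractile cells moved in opposite directions. The higher count was 5 without stiff IPN replicate 1, and the call of TAGLN was lost without either soft IPN replicate or either stiff col replicate. Of 20 tested genes of the Hippo pathway 1 was called (5%, against 3.96% of all genes), and the median was 0.01. It was VGLL3, a cofactor of TEAD factors (238 and 149 against 540 and 691, 1.69, adjusted p = 0.0332). Without stiff IPN replicate 1 the pathway had 4 higher and 5 lower calls, and VGLL3 was not called without either soft IPN replicate. CTGF and CYR61, often used as readouts of YAP, held 71 and 34 against 91 and 364 (1.87, SE 0.63, adjusted p = 0.124) and 282 and 231 against 260 and 666 (0.7, SE 0.37, adjusted p = 0.279). In trial 1 alone CYR61 differed by -0.12.

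Immediate early genes and signals from the EGF receptor moved in different ways. Of 22 tested immediate early genes 5 were called lower and 0 higher, with a median of -0.4. FOS held 2078 and 1412 against 1093 and 405 (-1.36, SE 0.2, adjusted p = 0.0263), and FOSL2 (-1.2), CSRNP1 (-1.24), EGR1 (-0.93) and DUSP1 (-0.76) fell too. EGR1 held 4628 and 1262 against 2530 and 637, where the gels overlap and the fall is seen within trials. Of 22 EGF receptor genes, ligands and feedback inhibitors 2 rose, both ligands. HBEGF held 162 and 273 against 708 and 1067 (2.04, SE 0.39, adjusted p = 0.038) and EPGN 699 and 672 against 1188 and 1505 (0.96). Of 18 tested genes of the IL6 family and the STAT3 response 1 was called higher and 1 lower (11.1%, against 3.96% of all genes). Their median was -0.08. LIF, a cytokine of that family, rose (65 and 41 against 185 and 488, 2.52, adjusted p = 0.0332) and the receptor IL6R fell (635 and 1025 against 315 and 450, -1.1). Of 19 genes that respond to FOXO factors or to a shortage of nutrients, 3 fell. TXNIP, an inhibitor of glucose uptake, held 46372 and 11124 against 14227 and 3225 (-1.75, SE 0.16, adjusted p = 0.00709), with a larger gap between trials than between gels, and IRS2 (-1.68) and CITED2 (-1.3) fell without overlap. Fewer immediate early genes were called without soft IPN replicate 1 or either stiff col replicate, and none without soft IPN replicate 2. Without stiff IPN replicate 1 they were called in both directions, and the median of the list was -0.3. The EGF receptor count of 2 was 0 without either soft IPN replicate, and 6 and 3 of its genes were called lower without stiff IPN replicate 1 or 2. LIF and IL6R were not called without either soft IPN replicate, and their list had 3 higher and 5 lower calls without stiff IPN replicate 1 and 2 higher and 3 lower without stiff IPN replicate 2. The FOXO and nutrient list had calls in both directions without stiff IPN replicate 1 (median -0.23) and none without soft IPN replicate 2.

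The cell cycle showed no common direction in the trials. Of 38 tested genes of G1/S and replication 2 were called (5.26%, against 3.96% of all genes), both lower. They were CDK4 (2548 and 3040 against 1704 and 1452, -0.82, adjusted p = 0.0401) and the replication licensing factor CDT1 (310 and 310 against 182 and 153, -0.89, adjusted p = 0.0411). The other members lay mostly above 0, with 30 of 38 above and a median of 0.26, which was 0.74 in trial 1 and -0.27 in trial 2. Of 38 genes of G2/M and mitosis 0 were called, and their median was -0.23, with 0.31 in trial 1 and -0.75 in trial 2 and 0.04 over both with libraries scaled to equal sums. Leaving out stiff IPN replicate 1 gave 26 lower calls among them, and leaving out stiff IPN replicate 2 gave 8 higher ones. MKI67, a marker of cycling cells, held 1166 and 3097 against 1827 and 1416, a difference of 0.65 in trial 1 and -1.13 in trial 2 (-0.24 over both, adjusted p = 0.737). Of the G1/S genes 17 were called higher without stiff IPN replicate 2, and 9 lower without stiff IPN replicate 1, and the 2 lower calls were lost without either soft IPN or any single collagen library.

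Some of the largest changes fell outside these groups. Among called genes without overlap and with a mean of at least 50 in the higher gel, IGFL1, a secreted relative of insulin-like growth factor, rose most. It was listed at 0 in both soft libraries and at 30 and 322 in the stiff ones, at least 54.3-fold higher when the soft mean is set to the floor of 3 reads (adjusted p = 0.0263). CCDC64B (2 and 1 against 25 and 87), ATP6V1C2, a proton pump subunit (4 and 5 against 44 and 178), and MACC1 (1 and 8 against 37 and 119) were also among the 10 largest rises. The cell surface protein CEACAM6 rose from 8 and 5 to 98 and 83 (3.63, adjusted p = 0.0323). The largest fall was that of SLAMF9, with 101 and 93 against 9 and 1 (-4.45, SE 0.56, adjusted p = 0.0172). TMEM176B fell from 250 and 103 to 68 and 1 (-3.78), the angiopoietin receptor TEK, one of the endothelial markers, from 156 and 181 to 41 and 3 (-3.71), and the peptide EDN2 from 51 and 146 to 10 and 13 (-2.82). KCNMA1 and C1QL1 completed the 10 largest falls. By difference in normalized counts, KRT17, FDPS, HMGCS1 and ANXA1, a calcium-dependent membrane protein (6875 and 5845 against 15151 and 17420, 1.36, SE 0.16, adjusted p = 0.0138), were among the largest rises.

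**Figure D5:**
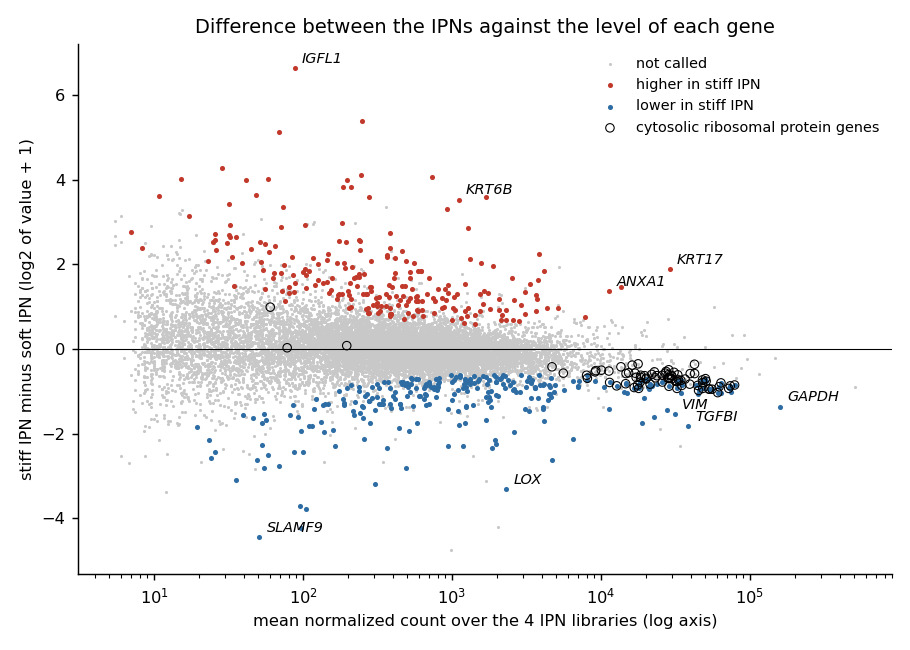
Stiff IPN minus soft IPN difference, log2(normalized count + 1), of each of the 12977 genes against its mean normalized count over the 4 IPN libraries (log axis), with genes called higher in red and lower in blue. Genes called higher had a median mean count of 486 and genes called lower one of 1632.

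The same contrast of stiffness in collagen gels, stiff col minus soft col:rBM, uses none of the IPN libraries, but there col-1 and rBM change together with stiffness. In it 0 of the 12977 genes were called (0%), with 475 at an unadjusted p under 0.05 and a smallest adjusted p of 0.0903. Of the 514 genes called between the IPNs, 388 had the same sign in collagen gels. Their medians there were 0.2 for those called higher (158 of 228 above 0) and -0.15 for those called lower (230 of 286 below 0). Over all genes tested the median was -0.0. The share of all genes with the same sign in both gel systems was not worked out, so these counts cannot be read as a shared response. The difference of differences, collagen minus IPN, was tested for each gene in the same fit and called for 2 genes (0.0154%), while 1290 had an unadjusted p under 0.05. KRT6B differed by 0.05 (SE 0.19) between the collagen gels, where the libraries held 60 and 318 in soft col:rBM and 52 and 391 in stiff col, and the difference of differences was -3.48 (SE 0.27, adjusted p = 0.0111). PGBD5, derived from a transposase, held 74 and 176 in soft and 333 and 878 in stiff IPNs (2.23, SE 0.17, adjusted p = 0.00649) but 245 and 548 in soft col:rBM and 145 and 321 in stiff col (-0.76, SE 0.17), a difference of differences of -2.99 (SE 0.24, adjusted p = 0.0111). The next gene, SPINK6, did not pass (adjusted p = 0.0738). Between 0 and 662 genes passed this test when single libraries were left out, with 0 without soft IPN replicate 1 or 2, 662 and 41 with stiff IPN replicate 1 or 2 left out, 4 and 3 without soft col:rBM replicate 1 or 2, and 1 and 9 without stiff col replicate 1 or 2.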

How the data were processed

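RNA-seq was measured in MCF10A cells from 4 gels, 2 libraries each, on 1 lane of paired reads. The deposited values are a signal per gene symbol that the authors made by counting uniquely mapped reads on hg19 with HTSeq, dividing them by 1 factor per library with DESeq2 and rounding, so they were treated as normalized counts and no count model was used. The submitters' processing notes also name Trim Galore 0.3.3, TopHat2 2.0.13, SAMtools 1.1 and R 3.2.0, whereas the study's methods name another aligner. The annotation and the strand setting of the counting are not given in the sources used here, and the kit does not mark strand, so reads from overlapping antisense genes cannot be told apart. Of 25369 symbols in the table, 28 had been turned into dates and were left out. Of the symbols, 23010 (90.8%) could be placed with the hg19 version of GENCODE 44, 1472 of them through an older name. Reads per library, between 13063229 and 18592366, were estimated from steps in the values and are not exact counts. The study gives larger numbers of reads after filtering, and that gap was not resolved. The floor of 3 reads covers counting error only, since libraries had no molecular identifiers and several reads can stem from 1 molecule.

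The filter, the transform and the fit are given above; limma 3.58.1 (statmod 1.5.0, R 4.3.3) was used with a mean-variance trend and robust moderation, and Python 3.11.15 with numpy 2.4.6, pandas 2.3.3 and matplotlib 3.10.9 for the rest. The trial block was used because replicate numbers pair the libraries. The study describes independent trials. Differences between replicates 2 and 1 correlated across genes in all 6 pairs of gels (r from 0.29 to 0.83). The lowest r, 0.29, was that of the soft and stiff IPNs compared here, and the highest that of the collagen gels. The members and the gene lists were chosen with earlier results of these data known, so counts and medians describe a list and are set beside those of all genes, with no test of the list. The 45 lists and 5 marker lists were written from general knowledge.

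Genes were named by a rule: among called genes without overlap and with a mean of at least 50 in the higher gel, the 10 largest rises and falls by log2 difference and the 5 largest by normalized counts, and the 4 largest called changes of each list. S100A7, IGFL1, KRT6A, KRT6B, CTGF and CYR61 were added as points of reference, some genes that the rule names are not reported here, members that did not pass are given as values, and further called members and other genes were named after their values were seen. Alternatives were no block, 4 scalings, 2 pseudocounts, 2 filters, plain moderation, each library left out, the IPN libraries alone, and a correction for gene length and GC content, which 12663 of the genes tested (97.6%) had. Promoters were those of RefSeq (GRCh38.p14), from 250 bases before to 50 after the start, and 42 of 44 selected stretches were placed on hg19 by exact match. No fold changes or p-values of the authors were used.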

Additional observations from a re-analysis of the deposited data

Results flagged for a closer look

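2 genes were called by the test of whether the stiffness difference itself differs between collagen gels and IPNs. KRT6B differed by 3.53 between the IPNs and by 0.05 between the collagen gels, a difference of differences (collagen minus IPN) of -3.48 (SE 0.27, limma adjusted p = 0.0111). PGBD5 differed by 2.23 between the IPNs and by -0.76 between the collagen gels, a difference of differences of -2.99 (SE 0.24, limma adjusted p = 0.0111), and was named after its values were seen. The collagen gels differ in col-1 and rBM as well as in stiffness, so which of these the test reflects cannot be told apart.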

How the results depend on the processing

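Trial block: without the replicate block 0 genes were called higher, 0 lower and 0 for the difference between gel systems over all 8 libraries, and in the 4 IPN libraries alone with no block 1 was called higher and 0 lower. With the block those 4 libraries gave 158 higher and 112 lower, 240 of these among the 514. Scaling to equal sums gave 699 higher and 168 lower calls (80.6% higher, against 44.4%), shifted the median of all genes by 0.27 and called 5 genes for the difference between gel systems. Quantile normalization gave 219 higher and 179 lower (55% higher), median-of-ratios 228 and 289 and upper-quartile scaling 229 and 234. A fit with neither trend nor robust moderation gave 34 higher, 13 lower and 0 for the difference between gel systems, a filter of 1 in 1 IPN library gave 290, 351 and 5, and a correction for gene length and GC content with the block gave 300 and 461, with 458 of the 514 still called. Without single libraries the higher calls ran from 0 to 1155, the lower calls from 0 to 1502 and those for the difference between gel systems from 0 to 662. Of the 514 genes, those tested kept their direction under all alternatives except 1 gene under quantile normalization. Of them 473 were tested under a filter of 10 in all 4 IPN libraries, 507 under the correction for gene length and GC content and all 514 otherwise. The alternatives reuse the libraries that chose these genes, so this is no independent check. The difference of KRT6A ran from -0.02 (without soft IPN replicate 2, and without stiff IPN replicate 2) to 0.26 without single libraries and was -0.09 in trial 1, and that of CYR61 ran from -0.01 (without stiff IPN replicate 2) to 1.41 and was -0.12 in trial 1. The causes were not tested. At 3 reads as the floor, genes under about 10 normalized counts carry large counting error, and 2 libraries per gel leave 3 residual degrees of freedom in the fit.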

Other observations

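The 429 long noncoding RNAs tested had a median difference of 0.24 (0.12 in trial 1 and 0.39 in trial 2), against -0.02 for 12034 protein-coding genes, a gap that was not tested. Of the 429, 8 were called higher and 6 lower, where 1.76% of all genes tested were called higher and 2.2% lower. NEAT1, the RNA scaffold of paraspeckles, held 1935 and 1599 in soft and 3664 and 7953 in stiff IPNs (1.62, SE 0.33, limma adjusted p = 0.0411), and MALAT1, of nuclear speckles, held 1021 and 767 against 1639 and 3156 (1.36, SE 0.28, limma adjusted p = 0.0445), both named after their values were seen. In both the stiff libraries lay above the soft ones and stiff IPN replicate 2 was highest.

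In the fit of all 8 libraries, further lists had these calls. Of 20 tested p53 targets 0 were called (median -0.16), of 5 metallothioneins 0 (-0.59), of 8 genes of the interleukin 1 family 0 (-0.07), of 5 cyclin-dependent kinase inhibitors 0 (-0.15) and of 3 luminal keratins 0 (-0.28). With libraries scaled to equal sums the medians of the p53 targets (0.11), the interleukin 1 family (0.2) and the kinase inhibitors (0.12) were above 0. Without stiff IPN replicate 1 the p53 targets had 1 higher and 2 lower calls, the interleukin 1 family 2 and 3, the metallothioneins 0 and 1 and the luminal keratins 1 and 0. Without stiff IPN replicate 2 these were 1 and 1, 2 and 0, 0 and 0, and 0 and 1, and 2 kinase inhibitors were called lower. Among 32 genes of the unfolded protein response and amino acid stress DDIT4 alone was called (3.12%, against 3.96% of all genes). It fell (22498 and 30781 against 14248 and 9866, -1.15, limma adjusted p = 0.0428). Among 10 polyadenylated histone genes H1F0 fell (-0.91). Without stiff IPN replicate 1 the former list had 2 higher and 8 lower calls and the latter 5 and 1, and both DDIT4 and H1F0 were not called without soft IPN replicate 2 or either stiff col replicate. Of 15 tested Notch genes HES2 alone was called (6.67%, against 3.96% of all genes) and rose (234 and 435 against 740 and 1407, 1.67). FOXA1, a luminal factor, rose from 81 and 25 to 185 and 146 (1.84, limma adjusted p = 0.0446), 1 of 9 luminal genes tested. HES2 and FOXA1 were not called without either soft IPN replicate, and FOXA1 not without stiff IPN replicate 2 or either stiff col replicate. Of 13 myoepithelial and basal genes KRT17 and TAGLN rose, and ACTA2, MME (-1.08) and PDPN (-1.09) fell.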
